A study of Rattus norvegicus with 12 samples.

Results

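The genes described here encode the contractile part of the cardiac thin filament in its fetal or skeletal and its adult cardiac forms. They were the 9 rows with the symbols Acta1, Actc1, Tnni1, Tnni3, Tnnt1, Tnnt2, Tnnc1, Tpm1 and Tpm2, taken by symbol from the 34700 genes of the table. The set was chosen with earlier results of these data known. Expression was measured by RNA sequencing of left ventricle from 12 male Sprague-Dawley rats, 3 in each of 4 groups, which were 8 weeks old at surgery and whose hearts were taken 12 weeks after it. The HF rats had heart failure after a myocardial infarct, made by ligating the left anterior descending coronary artery, and stayed sedentary. In the Sham rats the artery was threaded and not ligated, and these rats stayed sedentary. The HFE rats had the same infarct and were trained by treadmill running in sessions of 60 min, on 5 days of the week, over 8 weeks. The BAIBA rats had the infarct and received β-aminoisobutyric acid, a small molecule released by exercising muscle, at 75 mg/kg/day by gavage over 8 weeks, with no training. The infarct was shared by the HF, HFE and BAIBA groups, so no group was treated without it. In the BAIBA experiment of the paper, the Sham and HF groups received water by gavage. Whether the sequenced Sham and HF rats came from that experiment is not stated, and no gavage is described for the HFE rats. The tissue was described as the anterior left ventricular wall. The paper's methods name the area around the infarct for the BAIBA group only, and its results name it for the HF and BAIBA groups. Neither names it for the HFE group, and the distance of each piece from the scar was not given. Where the sampled region differed, region and treatment cannot be told apart.

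Between 14812541 and 19732588 reads were counted on genes in each rat, and the 9 thin filament genes took 2.21% to 2.75% of them. All 5 measured cardiomyocyte markers (Myh6, Ryr2, Actn2, Mybpc3 and Pln) were detected, and their summed level was 18190 to 30130 CPM (library-scaled counts, made comparable between rats by the trimmed mean of M-values). The 6 measured markers of fast skeletal muscle summed to 7.84 to 20.6 CPM. In whole tissue, fewer cells of a type and less RNA per cell cannot be told apart.

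In the sarcomere, actin monomers form the thin filament, tropomyosin lies along its groove, and the troponin complex sits on tropomyosin. Troponin C binds calcium, troponin I holds back the contact of myosin with actin, and troponin T ties the complex to tropomyosin. The heart of a fetal rodent uses slow skeletal troponin I (Tnni1), which gives way to cardiac troponin I (Tnni3) around birth. Skeletal α-actin (Acta1) is prominent in the fetal and newborn rodent ventricle next to cardiac α-actin (Actc1), and its return is widely used as a sign of the fetal gene programme in a loaded ventricle.

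Per transcript length, the adult cardiac forms lay far above the others in every rat. In FPKM (fragments scaled to gene length and library size), the median over the 12 rats was 5870.5 for Tnnt2, cardiac troponin T, and 4706.5 for Actc1. The median was 3811.5 for Tnni3, 2101 for Tnnc1, the troponin C shared by cardiac and slow muscle, and 1451.5 for Tpm1, α-tropomyosin. Acta1 followed at 364 and Tpm2, β-tropomyosin, at 16.3. Slow skeletal troponin I and slow skeletal troponin T, Tnni1 and Tnnt1, were close to the limit of detection at 1.07 and 0.746. Neighbours in this order overlapped over the rats in some cases: Actc1 covered 3427 to 5552 FPKM and Tnnt2 5229 to 7009, and Tnni1 covered 0.326 to 2.57 and Tnnt1 0.124 to 1.70. Tnni3 (3208 to 4537) overlapped Actc1 as well, whereas Tnnc1 (1690 to 2243), Tpm1 (1275 to 1563), Acta1 (62.1 to 631.8) and Tpm2 (11.9 to 26.6) occupied separate ranges.

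**Figure D1:**
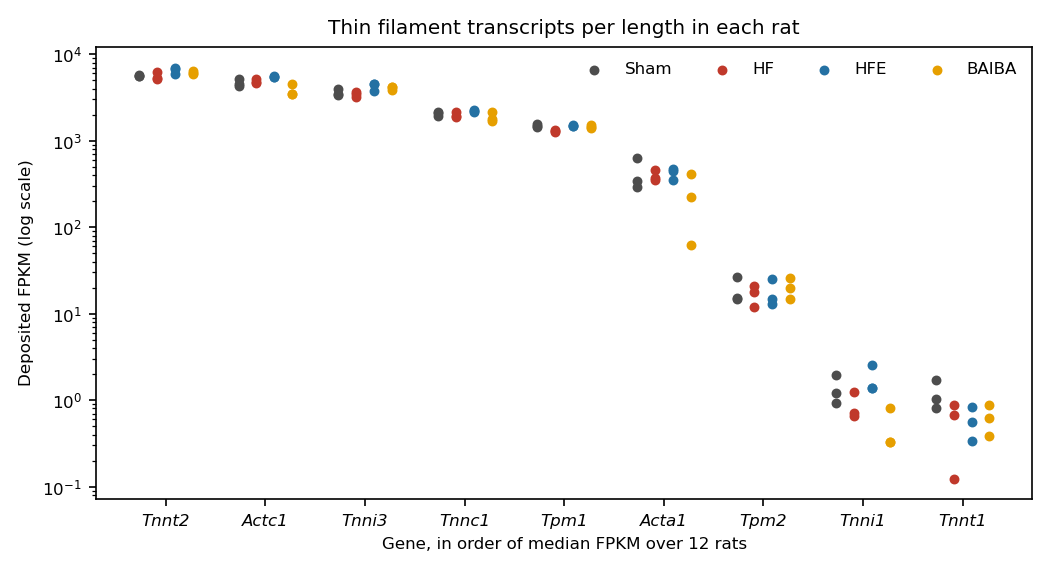
Deposited FPKM on a log axis for the 9 genes in order of their median, with 1 point per rat and the groups side by side in colour. The 5 adult cardiac forms lie above 1000 FPKM in every rat, Acta1 spreads from 62.1 to 631.8, and Tnni1 and Tnnt1 lie near 1.

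The genes also differed in how much they varied. Over the 12 rats, CPM spanned a 1.24-fold range for Tpm1, 1.33-fold for Tnnc1, 1.39-fold for Tnnt2, 1.42-fold for Tnni3 and 1.68-fold for Actc1. Tpm2 spanned 2.10-fold and Acta1 9.59-fold. The ranges of 8.36-fold for Tnni1 and 14.6-fold for Tnnt1 rest on 7 to 49 and on 2 to 29 reads per rat, where counting error alone is large.

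The regions upstream of the actin and troponin I pairs are shown because each pair holds a fetal and an adult form of the same subunit. Each sequence holds the 250 bases before the RefSeq start in the rat genome GRCr8, 5′ to 3′ on the strand of the gene, and capitals mark matches to a CArG box (the site of serum response factor) and to TATAAA. They lie at chr19:68784195-68784444 (minus strand) for Acta1, chr3:121271828-121272077 (minus) for Actc1, chr13:49781279-49781528 (plus) for Tnni1 and chr1:78342321-78342570 (plus) for Tnni3.
Acta1: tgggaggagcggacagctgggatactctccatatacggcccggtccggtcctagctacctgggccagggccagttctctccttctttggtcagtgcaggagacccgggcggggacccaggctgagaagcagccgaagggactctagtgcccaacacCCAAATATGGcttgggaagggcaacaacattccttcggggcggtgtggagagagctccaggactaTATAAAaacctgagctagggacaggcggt
Actc1: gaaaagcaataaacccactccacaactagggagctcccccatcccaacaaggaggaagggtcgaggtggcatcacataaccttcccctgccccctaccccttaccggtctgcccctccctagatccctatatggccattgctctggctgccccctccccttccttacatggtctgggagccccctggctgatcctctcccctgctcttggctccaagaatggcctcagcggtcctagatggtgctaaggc
Tnni1: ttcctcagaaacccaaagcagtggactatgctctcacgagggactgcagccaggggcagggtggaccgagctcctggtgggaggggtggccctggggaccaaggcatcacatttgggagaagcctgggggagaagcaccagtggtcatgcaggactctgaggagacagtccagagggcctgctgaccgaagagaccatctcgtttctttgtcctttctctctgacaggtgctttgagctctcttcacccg
Tnni3: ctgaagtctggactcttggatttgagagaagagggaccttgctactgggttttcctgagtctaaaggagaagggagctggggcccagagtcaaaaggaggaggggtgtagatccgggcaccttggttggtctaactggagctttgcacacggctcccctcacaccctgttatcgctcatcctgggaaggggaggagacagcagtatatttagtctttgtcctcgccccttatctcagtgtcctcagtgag

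In the Acta1 sequence, the CArG box lay at bases -94 to -85 from the start and TATAAA at -29 to -24. The letters CATTCC, the core of a TEAD factor site, were found there at -67 to -62. The other 3 sequences held none of these letters in the searched window. Of 33469 RefSeq promoters of that length, 1.5% held the CArG box, 12.9% TATAAA and 12.1% CATTCC, searched on both strands. A MEF2 site was in 2.96% of all promoters and in none of the 8 thin filament genes with a sequence, and the letters CANNTG, in 65.5%, were in Acta1, Tnni1, Tnnt1, Tnnt2 and Tpm1. Tnnt1 also held TATAAA at -30 to -25, Tpm1 CATTCC at -31 to -26 and Tnnt2 CATTCC at -83 to -78. Tnnc1 had no sequence in the table used. In the same annotation, Tnni3 and Tnnt1 were next to each other on chromosome 1, and Tnni1 and Tnnt2 lay on chromosome 13 with Lad1 as the coding gene between them.

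Cardiac α-actin, Actc1 (ENSRNOG00000008536), had the lowest p of the 9 genes in the test for a difference among the 4 groups. In Sham rats 1 to 3 it stood at 6437, 6524 and 7526 CPM and in HF rats 1 to 3 at 7287, 7009 and 7399. The HFE rats had 8100, 8657 and 8439 CPM, and the BAIBA rats had 6184, 5286 and 5153. Every HFE rat lay above every rat of the other groups, and every BAIBA rat below every other rat. The group means were 6829 ± 605, 7232 ± 201, 8399 ± 281 and 5541 ± 561 CPM (SD, n = 3) for Sham, HF, HFE and BAIBA. On the deposited FPKM scale the BAIBA rats (3427 to 4469) overlapped the Sham rats (4290 to 5173) and stayed below the HF and HFE rats.

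Skeletal α-actin, Acta1 (ENSRNOG00000017786), varied widely between rats of the same group. The Sham rats had 427, 478 and 886 CPM, the HF rats 618, 514 and 561, and the HFE rats 628, 705 and 520. The BAIBA rats had 557, 92.4 and 315 CPM, a 6.02-fold range within the group. The highest level was in Sham rat 3 and the lowest in BAIBA rat 2, and no pair of groups was separated.

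Cardiac troponin I, Tnni3 (ENSRNOG00000018250), stood at 2805, 3090 and 2678 CPM in the Sham rats and at 2812, 2809 and 2688 in the HF rats. The HFE rats had 2981, 3761 and 3800 CPM and the BAIBA rats 2872, 3494 and 3322. All treated rats lay above all HF rats, and both treated groups overlapped the Sham group.

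Slow skeletal troponin I, Tnni1 (ENSRNOG00000009073), was read from 21, 38 and 23 fragments in the Sham rats, 14, 26 and 18 in the HF rats, 49, 27 and 29 in the HFE rats and 7, 17 and 7 in the BAIBA rats. In CPM the Sham rats had 1.21, 2.46 and 1.51, the HF rats 0.803, 1.59 and 0.953, the HFE rats 3.26, 1.87 and 1.84, and the BAIBA rats 0.390, 1.09 and 0.422. The HFE rats lay above the HF and BAIBA rats, and the BAIBA rats below the Sham and HFE rats.

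Cardiac troponin T, Tnnt2 (ENSRNOG00000033734), was at 6852, 6723 and 6645 CPM in the Sham rats and at 7135, 6388 and 6631 in the HF rats. It was at 7964, 8874 and 7467 CPM in the HFE rats and at 6546, 7955 and 7230 in the BAIBA rats. The HFE rats were above the Sham and HF rats. On the FPKM scale, however, HFE (5914 to 7009) and HF (5229 to 6210) overlapped. The counts are per gene, so the fetal and adult splice forms of Tnnt2, like those of Tpm1, were not distinguished.

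Slow skeletal troponin T, Tnnt1 (ENSRNOG00000028041), was read from 29, 12 and 15 fragments in the Sham rats, 2, 14 and 13 in the HF rats, 12, 5 and 9 in the HFE rats and 10, 6 and 14 in the BAIBA rats. The Sham levels were 1.67, 0.778 and 0.985 CPM, and the HF levels 0.115, 0.859 and 0.689. In HFE it was at 0.799, 0.346 and 0.570 CPM and in BAIBA at 0.558, 0.385 and 0.844. Sham rat 1 was the highest of all and HF rat 1 the lowest, and all groups overlapped.

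Troponin C, Tnnc1 (ENSRNOG00000018943), stood at 1618, 1668 and 1750 CPM in the Sham rats, 1673, 1620 and 1599 in the HF rats, 1823, 1915 and 1848 in the HFE rats and 1639, 1443 and 1478 in the BAIBA rats. The HFE rats again lay above all other rats. BAIBA rat 1 was inside the range of the Sham and HF rats, and the other two BAIBA rats were below it.

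The tropomyosin genes behaved unlike each other. Tpm1 (ENSRNOG00000018184) had 4909, 4475 and 4378 CPM in Sham, 3956, 4016 and 4268 in HF, 4552, 4829 and 4917 in HFE and 4399, 4574 and 4430 in BAIBA. Its 3 lowest values were those of the HF rats. Tpm2 (ENSRNOG00000016731) had 22.3, 21.9 and 38.7 CPM in Sham, 24.9, 31.4 and 18.5 in HF, 19.0, 22.9 and 38.7 in HFE and 35.9, 22.7 and 29.6 in BAIBA, with overlap between all groups.

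**Figure D2:**
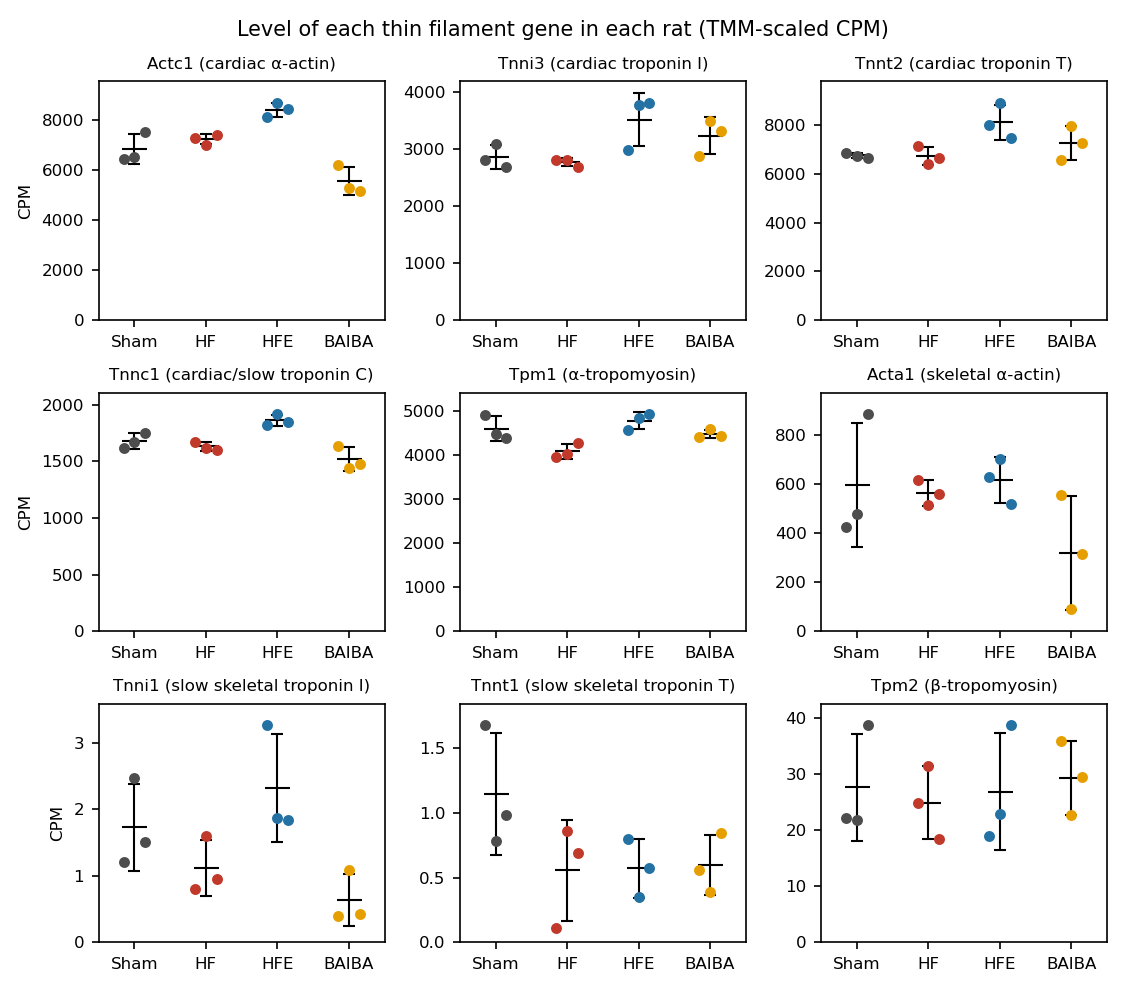
CPM of each gene by group on axes that start at 0, with a point per rat and black bars for the mean ± SD of 3 rats. Actc1 and Tnnc1 are highest in the 3 HFE rats, Tpm1 is lowest in the 3 HF rats, and Acta1 reaches 92.4 in 1 BAIBA rat.

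The comparison of HF with Sham asks whether the infarcted ventricle returned to the fetal forms. No thin filament gene was called: 0 of 9 had an adjusted p under 0.05 with an absolute log2 fold change over 1 (differentially expressed genes, DEGs, edgeR's quasi-likelihood test), against 0.0% of all 14957 genes tested. None of the 9 had an unadjusted p under 0.05, which 6.0% of all genes had, and DESeq2 called 0 as well. Acta1 was at 564 ± 51.9 CPM in HF and 597 ± 252 in Sham (SD, n = 3), a log2 fold change of -0.08 (SE 0.27, 95% interval -0.73 to 0.57). For Tnni1 the log2 fold change was -0.63 (SE 0.42, interval -1.60 to 0.35), for Tnnt1 -1.05 (SE 0.65, interval -2.56 to 0.45) and for Tpm2 -0.15 (SE 0.28, interval -0.82 to 0.53). The intervals of these low or variable genes are wide, and each of them ends below a log2 fold change of 1. The adult forms were measured more tightly: the log2 fold change was 0.08 for Actc1 (SE 0.09), -0.05 for Tnni3 (SE 0.09), -0.01 for Tnnt2 (SE 0.08) and -0.04 for Tnnc1 (SE 0.08). Tpm1 was the only gene of the 9 whose groups were separate, at 4080 ± 166 CPM in HF and 4587 ± 283 in Sham (log2 fold change -0.17, SE 0.09, adjusted p = 0.808). Groups were separate in this direction for 6.55% of all genes. The median log2 fold change was -0.08 over the 9 genes and 0.01 over all genes. The summed cardiomyocyte markers, which include Myh6, were at 20390 to 23130 CPM in HF and 27920 to 30130 in Sham. Without Myh6, itself a gene of the fetal programme, the other 4 summed to 9134 to 10190 CPM in HF and 9838 to 10530 in Sham and overlapped, with log2 fold changes of -0.01 for Actn2 (SE 0.11), 0.02 for Mybpc3 (SE 0.10), -0.24 for Ryr2 (SE 0.26) and -0.24 for Pln (SE 0.09).

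**Figure D3:**
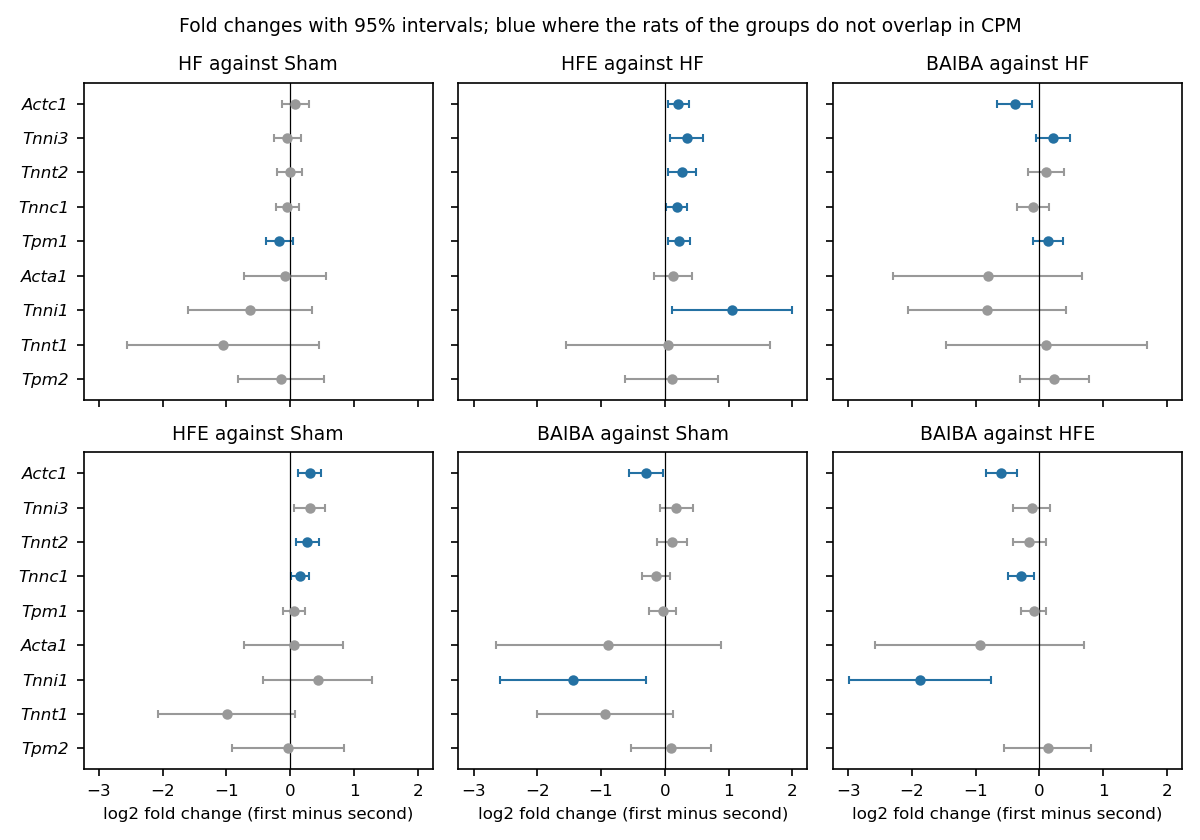
Fitted log2 fold changes of each gene with 95% intervals in the 6 comparisons, first-named group minus second. Blue marks genes whose groups do not overlap in CPM, such as the 6 blue genes to the right of 0 in HFE against HF and the 3 to the left in BAIBA against HFE. Tnnt1 was below the count filter in BAIBA against HFE and is not drawn there.

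HFE was compared with HF to see what training did in the infarcted heart. All 9 genes had a positive log2 fold change, between 0.05 and 1.05, with a median of 0.22 against -0.01 over all genes, and none was called (0 of 9, and 0.0% of 14938 genes tested; DESeq2 called 0). The 6 genes Actc1, Tnni1, Tnni3, Tnnt2, Tnnc1 and Tpm1 were higher in every HFE rat than in every HF rat, a separation seen upward in 8.26% of all genes. The same 6 had an unadjusted p under 0.05, as had 4.34% of all genes in this direction. Actc1 had a log2 fold change of 0.21 (SE 0.07), Tnnt2 of 0.27 (SE 0.09), Tnnc1 of 0.19 (SE 0.07) and Tpm1 of 0.22 (SE 0.08). Tnni3 reached 0.34 (SE 0.11, edgeR adjusted p = 0.627), and Tnni1 1.05 (SE 0.40, adjusted p = 0.635) from a mean of 1.12 to 2.32 CPM. Acta1 (0.13, SE 0.13), Tpm2 (0.11, SE 0.31) and Tnnt1 (0.05, SE 0.69) had overlapping groups. The number with an unadjusted p under 0.05 was 1 without HFE rat 2, 2 without HF rat 2 or HFE rat 3, 3 without HF rat 3 or HFE rat 1 and 5 without HF rat 1. On the FPKM scale the groups were separate for 5 of the 6 genes, Tnnt2 being the exception.

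Set against HF, the BAIBA group showed no called gene among the 9 (0.0% of 15039 genes; DESeq2 called 0), and 1 had an unadjusted p under 0.05, against 5.55% of all genes. That gene was Actc1, with 5541 ± 561 against 7232 ± 201 CPM (log2 fold change -0.38, SE 0.12, adjusted p = 0.851), lower in each BAIBA rat. Tnni3 (0.22, SE 0.12) and Tpm1 (0.13, SE 0.10) were higher in each BAIBA rat than in each HF rat. Separation was found upward in 6.01% and downward in 5.37% of all genes. Acta1 had a log2 fold change of -0.81 with a wide interval, -2.29 to 0.67, and Tnni1 of -0.82 (interval -2.06 to 0.42). Single rats moved both values: Acta1 was at -1.47 without BAIBA rat 1 and -0.37 without BAIBA rat 2, and Tnni1 at -1.44 without BAIBA rat 2 and -0.48 without HF rat 2. Tnnt2 (0.11, SE 0.12), Tnnc1 (-0.10, SE 0.11), Tpm2 (0.24, SE 0.23) and Tnnt1 (0.11, SE 0.68) overlapped.

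BAIBA against HFE, the 2 treatments of the infarcted heart, held the largest fold changes of Actc1 and Tnni1 among the 6 comparisons. Of the 8 thin filament genes above the count filter, 0 were called, against 0.0808% of 14844 genes tested (DESeq2 called 0). Actc1 was lower in BAIBA by a log2 fold change of -0.60 (SE 0.10, interval -0.84 to -0.36), Tnni1 by -1.87 (SE 0.49, interval -2.99 to -0.76) and Tnnc1 by -0.29 (SE 0.09, interval -0.50 to -0.08). These 3 were separate between the groups, on the CPM and on the FPKM scale, as were 8.37% of all genes in this direction, and they had an unadjusted p under 0.05, as had 4.88%. The adjusted p was 0.131 for Actc1, 0.242 for Tnni1 and 0.336 for Tnnc1. For Actc1 it depended on the procedure, being 0.0409 with no filter on low counts, 0.0568 in a fit of all 12 rats, 0.0771 with the replicate number as a block and 5.38e-05 in DESeq2, over a range of 5.38e-05 to 0.428 in all alternatives. Its fold change stayed under the limit for a call. Tnni1 had an adjusted p of 0.0729 to 0.546 over the alternatives. Acta1 had a log2 fold change of -0.94 (SE 0.64), Tnnt2 of -0.16 (SE 0.11), Tnni3 of -0.12 (SE 0.12), Tpm1 of -0.09 (SE 0.08) and Tpm2 of 0.13 (SE 0.29), all with overlapping rats. The 5 measured red cell markers (Hba-a1, Hba-a2, Hbb, Alas2 and Slc4a1) summed to 905 to 1304 CPM in BAIBA and 720 to 827 in HFE. The sums of the 6 fibroblast markers (Col1a1, Col1a2, Col3a1, Postn, Dcn and Pdgfra) overlapped, at 1321 to 1902 CPM in BAIBA and 1044 to 1384 in HFE. All 6 had a positive log2 fold change, with a median of 0.40. The parts of blood and of fibroblasts in the values of this comparison were not tested.

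Each group enters 3 of the 6 comparisons, so their values are not independent. Against Sham, the HFE group had 3 genes above every Sham rat, namely Actc1 (log2 fold change 0.30, SE 0.08, adjusted p = 0.294), Tnnt2 (0.27, SE 0.08, adjusted p = 0.305) and Tnnc1 (0.15, SE 0.06, adjusted p = 0.423). Separation upward was found in 9.5% of all genes, and none of the 9 was called (0.0% of 14804; DESeq2 called 0). Tnni3 overlapped at 0.30 (SE 0.10), and 4 genes had an unadjusted p under 0.05, against 11.2% of all genes. On the FPKM scale Tnnc1 overlapped. The summed cardiomyocyte markers were at 18190 to 23190 CPM in HFE and 27920 to 30130 in Sham, and without Myh6 they overlapped at 9063 to 10070 and 9838 to 10530. The 6 fibroblast markers (Col1a1, Col1a2, Col3a1, Postn, Dcn and Pdgfra) summed to 1044 to 1384 CPM in HFE and 1390 to 1495 in Sham, and their part in these values was not tested. The fetal forms stood at 0.05 for Acta1 (SE 0.31), 0.44 for Tnni1 (SE 0.37), -0.99 for Tnnt1 (SE 0.47) and -0.03 for Tpm2 (SE 0.35).

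Compared with Sham, the BAIBA group had Actc1 (log2 fold change -0.29, SE 0.12, adjusted p = 0.656) and Tnni1 (-1.44, SE 0.50, adjusted p = 0.616) below every Sham rat, in the company of 6.17% of all genes, and these 2 also had an unadjusted p under 0.05, against 7.41% of all genes. None of the 9 was called, against 0.0402% of 14920 (DESeq2 called 0). On the FPKM scale Actc1 overlapped and Tnnt2 was higher in each BAIBA rat. Acta1 was at -0.88 (SE 0.69), Tnnt1 at -0.93 (SE 0.46), Tnnc1 at -0.14 (SE 0.10), Tnnt2 at 0.11 (SE 0.10), Tnni3 at 0.18 (SE 0.11), Tpm1 at -0.03 (SE 0.09) and Tpm2 at 0.10 (SE 0.27). Red cell markers were at 540 to 780 CPM in Sham, below the BAIBA rats. Atrial markers other than Nppa and Dkk3 (Myl4, Myl7, Sln and Bmp10) summed to 1.99 to 3.63 CPM in BAIBA and 13.8 to 65.9 in Sham, with log2 fold changes of -5.82 for Myl7 (SE 0.62), -3.22 for Myl4 (SE 0.94) and -2.63 for Sln (SE 0.79). The part of blood and of atrial tissue in these values, that of Tnni1 included, was not tested.

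A test for any difference among the 4 groups ordered the genes by the size of their evidence. Actc1 had F = 13.7 and an edgeR adjusted p of 0.241. It was followed by Tnni1 (adjusted p = 0.406), Tnnc1 (0.431), Tnni3 (0.474), Tnnt2 (0.507) and Tpm1 (0.553), and Tnnt1, Acta1 and Tpm2 had adjusted p values of 0.696, 0.726 and 0.968. None of the 9 passed, and neither did any of the 15617 genes tested (0.0%). The first 5 had an unadjusted p under 0.05, as had 9.71% of all genes. The likelihood ratio test of DESeq2 called Actc1 (adjusted p = 4.05e-06) and Tnnc1 (adjusted p = 0.0156), among 335 of 16614 genes that it called.

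The switch itself was read as the FPKM of the fetal or skeletal form in percent of the adult form in the same rat. Acta1 amounted to 8.90% ± 2.89 of Actc1 in Sham, 8.09% ± 0.621 in HF, 7.62% ± 1.09 in HFE and 5.83% ± 3.79 in BAIBA (SD, n = 3). The BAIBA rats had 9.34%, 1.81% and 6.34%, so that group held both a value above all HF rats and the lowest of all. The exact permutation test over the 369600 ways to assign 12 rats to 4 groups gave p = 0.511 (0.682 adjusted over the 4 ratios). Without BAIBA rat 1 the exact permutation p was 0.0292 (adjusted 0.105), and without BAIBA rat 2 it was 0.908 (adjusted 0.908). The Acta1 to Actc1 ratio differed between HF and Sham by -0.09 on the log2 scale (SE 0.26, two-sided exact permutation p = 0.9).

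Tnni1 amounted to 0.0373% ± 0.0115 of Tnni3 in Sham, 0.0251% ± 0.00917 in HF, 0.0431% ± 0.0217 in HFE and 0.0119% ± 0.00650 in BAIBA (SD, n = 3). In BAIBA rats 1 to 3 the values were 0.00847%, 0.0194% and 0.00792%, each below all Sham rats (0.0269%, 0.0497% and 0.0351%) and all HFE rats (0.0682%, 0.0310% and 0.0301%). The HF rats, at 0.0178%, 0.0354% and 0.0221%, overlapped every group. This ratio had the lowest exact permutation p among the 4 ratios, 0.0175, and an adjusted p of 0.0701. The adjusted p ranged from 0.0345 without BAIBA rat 2 to 0.227 without BAIBA rat 3. It was 0.269 on the unlogged ratios and 0.272 on their ranks.

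Tnnt1 amounted to 0.0210% ± 0.00829 of Tnnt2 in Sham, 0.0105% ± 0.00763 in HF, 0.00892% ± 0.00383 in HFE and 0.0104% ± 0.00425 in BAIBA (SD, n = 3; exact permutation p = 0.379, adjusted 0.682). The HFE rats (0.00484% to 0.0124%) lay below the Sham rats (0.0144% to 0.0303%), and the HF and BAIBA rats overlapped them. For Tpm2 the percentages of Tpm1 were 1.27% ± 0.50, 1.29% ± 0.366, 1.17% ± 0.417 and 1.38% ± 0.334 in Sham, HF, HFE and BAIBA (SD, n = 3; exact permutation p = 0.911, adjusted 0.911). The 6 smooth muscle markers (Myh11, Acta2, Tagln, Cnn1, Lmod1 and Smtn) summed to 265 to 350 CPM in Sham and 228 to 297 in HF. They summed to 255 to 426 CPM in HFE and 277 to 335 in BAIBA, and the part of smooth muscle in Tpm2 was not tested. With 3 rats against 3, a two-sided exact permutation test over 20 assignments cannot give a p under 0.1. The 3 separated differences reached it, BAIBA against Sham (-1.72 on the log2 scale, SE 0.49) and BAIBA against HFE (-1.87, SE 0.57) for Tnni1 over Tnni3, and HFE against Sham (-1.27, SE 0.51) for Tnnt1 over Tnnt2. Adjusted over the 24 differences, the lowest p was 0.8.

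**Figure D4:**
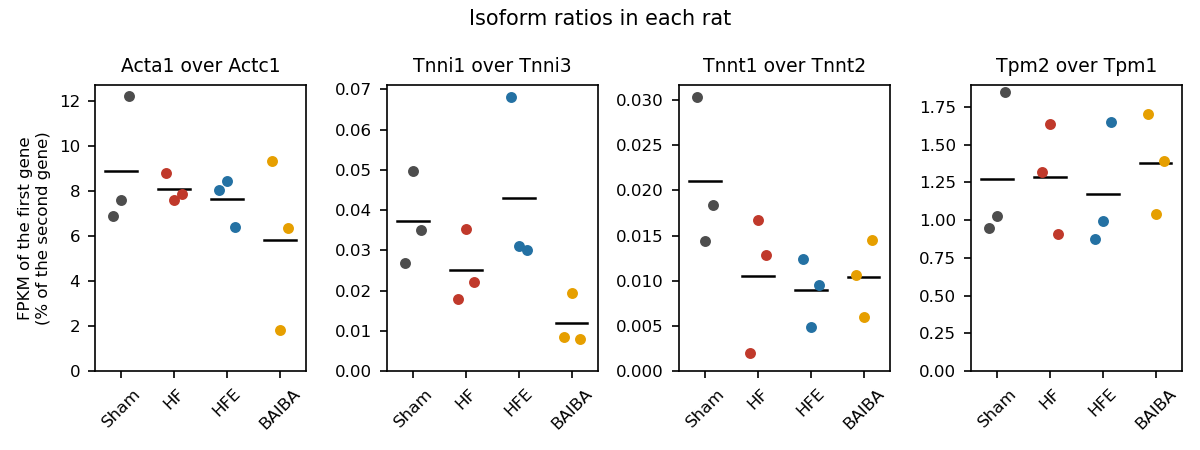
FPKM of the fetal or skeletal form in percent of the adult form in each rat, with a black line at the group mean of 3 rats and axes that start at 0. Tnni1 over Tnni3 is lowest in BAIBA at a mean of 0.0119%, Tnnt1 over Tnnt2 is lower in the 3 HFE rats than in the Sham rats, and the actin and tropomyosin ratios overlap between all groups.

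Across the 12 rats some of the genes varied together, given here as a description, since the rats share 4 groups and the values share library sizes. Log2 CPM of Actc1 and Tnnc1 correlated with a Pearson r of 0.93, and with 0.88 after the group means were removed. Acta1 correlated with Tnnc1 (0.74, and 0.83 without group means) and Actc1 (0.74 and 0.68). BAIBA rat 2 had the lowest Acta1 (92.4 CPM) and the lowest Tnnc1 (1443 CPM), and its weight in these correlations was not tested. With Tnni1, Tnni3 and Tnnt2, Acta1 had r of 0.23, -0.37 and -0.22, and of -0.61, -0.55 and -0.51 without group means. Tnni3 correlated with Tnnt2 (0.76 and 0.42) and Tpm1 (0.61 and 0.38). The positive correlation of Actc1 with Tnni1, 0.62, became -0.41 once the group means were removed. Tnni1 and its adult counterpart Tnni3 had a correlation of 0.17 (0.11).

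**Figure D5:**
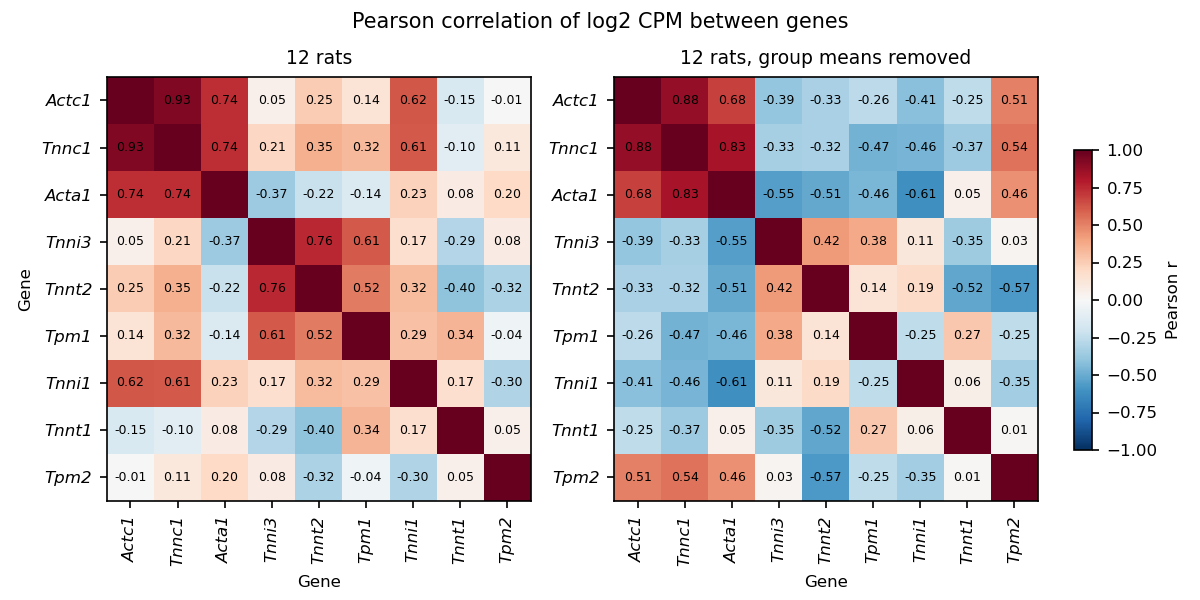
Pearson r of log2 CPM between each pair of the 9 genes over 12 rats (left) and after the mean of each group was subtracted (right), on a colour scale from -1 to 1. Actc1, Tnnc1 and Acta1 form a block of positive values on both sides, up to 0.93.

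The genes whose log2 CPM followed the 4 fetal or skeletal forms most closely over the 12 rats, among 12956 genes (12957 for Tnnt1) with a symbol and a mean of at least 1 CPM, are given by name, with no p. For Acta1 they included Pop5 (r = 0.954), Npepl1 (0.925), Gorasp1 (0.923) and Arfrp1 (0.916). For Tnni1 they were Irx3 (0.917), Sec11c (0.893), Cdh2 (0.865), Irx5 (0.862) and Hcn4 (0.850), where Irx3 and Irx5 are homeobox transcription factors, Cdh2 is N-cadherin of the intercalated disc and Hcn4 is a pacemaker channel. Tnnt1 was followed by Man1c1 (0.888), Rptor (0.885), Myo18b (0.870), Oxct1 (0.858) and Tbx5 (0.846). Closest to Tpm2 were Tagln (0.880), a smooth muscle actin-binding protein, Dgat1 (0.867), Ccdc9b (0.864), Dkk2 (0.855) and Tmem63c (0.846).

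Among the other thin filament genes, 16 of 19 listed passed the count filter in each comparison and 0 were called by edgeR in any. In HF against Sham, 0 of them had a higher and 2 a lower level at an unadjusted p under 0.05, which 6.0% of all genes had in either direction. These were the leiomodins Lmod1 (log2 fold change -0.53, SE 0.20) and Lmod3 (-0.49, SE 0.19), which nucleate actin filaments. The nebulin gene Neb stood at -0.46 (SE 0.36) and the pointed-end cap gene Tmod4 at -0.31 (SE 0.25). The thick filament and Z-disc list had 0 of 6 tested genes called in any comparison, and in HF against Sham its largest values were -0.05 for Myl3 (SE 0.09) and 0.03 for Myom2 (SE 0.18). In HFE against HF, 2 of these 6 were higher at an unadjusted p under 0.05, against 4.34% of all genes. They were Myl3 (0.30, SE 0.10) and Myl2 (0.22, SE 0.08). In BAIBA against HFE, 4 of the 6 were lower at an unadjusted p under 0.05, against 4.88% of all genes.

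Outside the thin filament, the fetal programme list had 8 genes. Myh7, the slow β-myosin heavy chain of the fetal ventricle, was called. It fell in BAIBA against Sham (3414 ± 279 against 7716 ± 268 CPM, SD, n = 3, log2 fold change -1.17, SE 0.10, edgeR adjusted p = 0.00864) and against HFE (14450 ± 1930 CPM, log2 fold change -2.08, SE 0.13, edgeR adjusted p = 0.00237). Against HFE the adjusted p stayed under 0.05 in every alternative (8.02e-52 to 0.0223). Against Sham it was 0.0699, 0.0894 and 0.0568 without Sham rats 1, 2 and 3 and 0.302 in a fit of all 12 rats, over a range of 2.11e-26 to 0.302. BAIBA against HF gave Myh7 a log2 fold change of -1.89 (SE 0.25, edgeR adjusted p = 0.334), with an adjusted p of 0.0247 in a fit of all 12 rats and 4.39e-12 in DESeq2, over a range of 4.39e-12 to 0.859. Myl7, an atrial and embryonic myosin light chain named after its values were seen, was at 27.4, 11.4 and 40.6 CPM in the Sham rats and 0.745, 2.33 and 19.7 in the HF rats. The HFE rats had 32.4, 1.18 and 0.443 CPM and the BAIBA rats 0.669, 0.385 and 0.301, so every BAIBA rat lay below every Sham and HF rat. Its log2 fold change in BAIBA against Sham was -5.82 (SE 0.62, edgeR adjusted p = 0.0695). That adjusted p was 0.0217 with the replicate block, 0.00263 without Sham rat 2, 0.045 in limma on log2(FPKM + 0.1) and 1.48e-28 in DESeq2, over a range of 1.48e-28 to 0.601. In BAIBA against HF, Myl7 was at -4.04 (SE 1.33, edgeR adjusted p = 0.851), with a DESeq2 adjusted p of 0.0122. In HF against Sham, Myh7 had a log2 fold change of 0.71 (SE 0.24, adjusted p = 0.805). There Myh6, the adult α-myosin heavy chain, was at -0.62 (SE 0.12, adjusted p = 0.709), Nppb, the B-type natriuretic peptide, at 1.26 (SE 0.41, adjusted p = 0.805) and Nppa, the atrial natriuretic peptide, at 0.98 (SE 1.19, adjusted p = 0.92). Nppa covered 10.4 to 509 CPM over the 12 rats. The sum of the 6 atrial markers, 131 to 646 CPM in HF, 180 to 520 in Sham, 120 to 274 in HFE and 82.5 to 295 in BAIBA, was carried by Nppa itself and Dkk3. The other 4 summed to 2.29 to 29.0 CPM in HF, 13.8 to 65.9 in Sham, 1.27 to 47.3 in HFE and 1.99 to 3.63 in BAIBA. In HF against Sham these had log2 fold changes opposite in sign to that of Nppa, -1.79 for Myl7 (SE 1.15), -2.05 for Myl4 (SE 1.13) and -2.30 for Sln (SE 1.25), with Bmp10 below the count filter.

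Of the regulators of transcription listed, 11 of 12 were tested and 0 were called. Myocd, the myocardin coactivator of serum response factor, had an edgeR adjusted p of 0.0291 in BAIBA against HFE with a log2 fold change of -0.87 (SE 0.10), under the limit for a call, at 28.8 ± 0.947 against 52.9 ± 3.83 CPM (SD, n = 3). Its adjusted p covered 5.5e-08 to 0.198 over the alternatives and was above 0.05 without any 1 of HFE rats 1 to 3 (0.0854, 0.188 and 0.0734), BAIBA rat 2 (0.0649) or BAIBA rat 3 (0.153). In HF against Sham the largest values of this list were 0.30 for Mrtfa (SE 0.20), 0.27 for Tead4 (SE 0.19), -0.23 for Tbx5 (SE 0.22) and -0.20 for Mef2c (SE 0.11). All 9 regulators of splicing were tested and 0 were called, with -0.30 for Rbfox1 (SE 0.16), 0.28 for Celf2 (SE 0.21), 0.17 for Ptbp1 (SE 0.16) and 0.16 for Mbnl1 (SE 0.17) in HF against Sham.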

How the data were processed

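Left ventricular RNA bound to oligo(dT) beads was sequenced in pairs from 12 rats in 4 groups, taken from the sample labels. The authors used HISAT2 for alignment, StringTie to add genes and featureCounts to count reads per gene. The deposited counts are raw whole numbers, and the FPKM values deposited beside them imply 1 length per gene in all rats. The submitters' processing notes list mm9, a mouse build, while the identifiers are those of rat genes. The rat build is not given in the sources used here, nor is the strand of counting. No column of values was left unmapped.

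The analysis used edgeR 4.0.16 in R 4.3.3, fitting the 2 groups compared (or all 4) with TMM normalization, the filterByExpr filter and robust quasi-likelihood fits. Adjusted p-values are Benjamini-Hochberg over all genes tested. A gene was called with an adjusted p under 0.05 and, between 2 groups, an absolute log2 fold change over 1. Dividing a log2 fold change by the root of its F gave its SE, and intervals are at 95%. CPM used TMM factors over all 12 rats, with a prior count of 2 in correlations. Ratios used FPKM and exact permutation tests, two-sided. The fits were tested on simulated data.

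Alternatives were DESeq2 1.42.0, RLE, library-size scaling, a fit of all 12 rats, no filter beyond 1 count, a minimum of 10 counts per library, a replicate block, no fold limit, limma 3.58.1 on log2(FPKM + 1) and log2(FPKM + 0.1), and each rat left out. The members and lists were chosen with earlier results of these data known. Named genes were all 9 members, called genes of the other lists, Myh6, Myh7, Nppa and Nppb, the 4 genes of each list without a call that had the largest change in HF against Sham at a mean of at least 1 CPM, and the 5 genes most correlated with each fetal form, of which 1 is not reported here. Myocd, Myl7, the marker sums without single genes and the ratios to Tnnt2 were added after their values were seen. Lmod2, Ttn, Tcap, Mrtfb, Myh1, Myh4 and Hbb-b1 were not analysed here. Promoter sequences are from RefSeq on GRCr8, with 8 of 9 symbols matched.

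No pair of replicates differed by sampling noise alone (chi-square per degree of freedom 11.8 to 33.7). The labels give the replicate numbers, and rats that share one are separate animals. Deviations of same-numbered rats correlated by 0.195, 0.261 and 0.138 in BAIBA against HFE and by -0.083 to 0.15 in the other comparisons.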

Additional observations from a re-analysis of the deposited data

How the results depend on the processing

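The number of thin filament genes called between 2 groups was 0 under every alternative, leaving out each rat included. In the test among 4 groups it was 0 with edgeR and 2 with DESeq2 (Actc1 and Tnnc1), which called 335 of 16614 genes, and the cause was not tested. Of 787 alternative values for the 53 fitted fold changes, 27 had the opposite sign, in 12 of the fold changes, 25 of them with a rat left out and none past the limit for a call. The others were 0.001 for Tnnt2 in HF against Sham with no filter beyond 1 count and -0.009 for Acta1 in HFE against Sham with library-size scaling only. The labels give no pairing of rats that share a replicate number. With the replicate number as a block, the edgeR adjusted p of Actc1 in BAIBA against HFE was 0.0771. For Tnni1 over Tnni3 among the 4 groups, the exact permutation test within replicate numbers gave an adjusted p of 0.0903. No call of the 9 genes changed with the block.

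With each rat left out in turn, log2 fold changes spanned, in HF against Sham, -0.27 to 0.33 for Acta1, -0.082 to 0.013 for Tnni3, -0.05 to 0.023 for Tnnt2, -0.35 to 0.18 for Tpm2, -0.13 to 0.14 for Myom2, -0.067 to 0.078 for Mybpc3, -0.11 to 0.053 for Actn2, -0.021 to 0.28 for Ptbp1 and -0.005 to 0.26 for Mbnl1. In HFE against HF they spanned -0.42 to 0.49 for Tnnt1 and -0.25 to 0.31 for Tpm2, and the number with an unadjusted p under 0.05 went from 1 to 5. In BAIBA against HF, Tnnt1 spanned -0.36 to 0.55. In HFE against Sham, Acta1 spanned -0.14 to 0.46 and Tpm2 -0.39 to 0.29. In BAIBA against Sham, Tpm1 spanned -0.065 to 0.02 and Tpm2 -0.077 to 0.42, and in BAIBA against HFE Tpm2 spanned -0.065 to 0.49. The adjusted p of Tnni1 over Tnni3 spanned 0.0345 to 0.227. The log2 difference between HF and Sham spanned -0.26 to 0.16 for Acta1 over Actc1 and -0.15 to 0.34 for Tpm2 over Tpm1.

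Tnni1 and Tnnt1 rest on at most 49 and 29 reads per rat, and differences within their intervals were not detectable here. The parts of read depth and of spread between rats in those intervals were not tested. Over all genes, DESeq2 gave 24 DEGs in HF against Sham, 22 and 31 for HFE and BAIBA against HF, and 72 in HFE against Sham, where edgeR gave 0. It gave 78 in BAIBA against Sham (edgeR 6) and 171 in BAIBA against HFE (edgeR 12).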

Other observations

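Within the adult set, levels relative to Tnnt2 in the same rat are independent of the scaling between rats. These ratios were chosen after the values were seen and are given as a description. Actc1 amounted to 0.763 to 0.920 of Tnnt2 FPKM in Sham, 0.829 to 0.906 in HF, 0.792 to 0.918 in HFE and 0.540 to 0.767 in BAIBA, so the upper end of the BAIBA range overlapped only the lower end of Sham. Tnnc1 amounted to 0.347 to 0.387 in Sham, 0.344 to 0.372 in HF, 0.317 to 0.363 in HFE and 0.266 to 0.367 in BAIBA. For Tnni3 the ranges were 0.608 to 0.693, 0.594 to 0.663, 0.564 to 0.767 and 0.661 to 0.693. For Tpm1 they were 0.2557 to 0.278, 0.215 to 0.250, 0.211 to 0.2555 and 0.223 to 0.261, so the HF rats lay below the Sham rats. The highest HFE rat, at 0.2555, was only just below the lowest Sham rat, at 0.2557. Tpm1 itself overlapped between HFE and Sham (log2 fold change 0.06, SE 0.07), while Tnnt2 was higher in each HFE rat than in each Sham rat.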
